A study of Rattus norvegicus with 44 samples.

Results

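The genes described are those of the CCN family and Tgfbi, which encode proteins secreted into the extracellular matrix. They were found as the probe sets whose only annotated symbol was Ccn1, Ccn2, Ccn3, Ccn4, Ccn5 or Tgfbi. Each gene had 1 such probe set, so that 6 of the 27342 probe sets of the array, and 6 of the 14324 genes with a symbol, were examined. RNA came from whole ovaries of 4-day-old female Sprague-Dawley rats, kept in organ culture for 48 h without a growth factor (controls) or with 1 growth factor at 50 ng/ml. In the first set of 38 arrays 14 samples were controls and 24 were treated, 3 with each factor (PDGFab, LIF, KITLG, GDNF, FGF7, FGF2, BMP4 or AMH). In the second set of 6 arrays there were 3 samples treated with human CTGF, which is the protein that the human CCN2 gene encodes, and 3 controls of their own. The 2 or 3 ovaries of a well, from littermate pups, were pooled as a sample, so that all cell types of the organ contributed to a value and cell types were not separated. All 3 samples that the labels give for GDNF were used, although the text of the study counts fewer.

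The CCN proteins are built from a few shared modules and are called matricellular, because they tune how cells respond to integrins, proteoglycans and growth factors more than they hold the matrix together. Ccn1 and Ccn2 are classical targets of YAP and TAZ, the transcriptional coactivators of the Hippo pathway that act through TEAD factors, and Ccn2 and Tgfbi are also classical targets of TGF-beta. In the ovary, CCN2 is known from the follicle wall, where granulosa and theca cells exchange signals with the oocyte.

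The promoters of Ccn1, Ccn2 and Tgfbi are shown for the letters GGAATG, the core that TEAD factors recognise. In the windows used, these letters were found in the pair of classical YAP target genes and not in Tgfbi. The sequences are those of RefSeq for the rat assembly GRCr8, in windows of 250 bases before and 50 after the start that the sequence table uses, 5′ to 3′ on the gene's strand. For Ccn1 and Ccn2 that is the outermost start of the RefSeq gene, whereas the Tgfbi window ran from 129 bases before that start to 171 bases from it on. Capitals mark GGAATG, or CATTCC where it lies on the opposite strand. All 3 genes lie on the minus strand, with the windows at chr2:237225640-237225939 for Ccn1, chr1:22624565-22624864 for Ccn2 and chr17:7990064-7990363 for Tgfbi.
Ccn1: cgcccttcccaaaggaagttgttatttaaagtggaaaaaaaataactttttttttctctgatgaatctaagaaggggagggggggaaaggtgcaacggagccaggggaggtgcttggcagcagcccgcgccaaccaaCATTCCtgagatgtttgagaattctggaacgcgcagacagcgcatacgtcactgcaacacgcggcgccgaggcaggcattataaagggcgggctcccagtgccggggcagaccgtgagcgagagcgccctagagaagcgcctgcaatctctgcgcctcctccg
Ccn2: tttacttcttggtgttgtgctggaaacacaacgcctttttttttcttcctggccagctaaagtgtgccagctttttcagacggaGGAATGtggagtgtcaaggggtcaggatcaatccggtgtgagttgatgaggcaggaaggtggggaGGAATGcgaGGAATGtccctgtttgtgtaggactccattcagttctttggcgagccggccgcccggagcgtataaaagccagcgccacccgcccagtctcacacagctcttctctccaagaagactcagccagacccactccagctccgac
Tgfbi: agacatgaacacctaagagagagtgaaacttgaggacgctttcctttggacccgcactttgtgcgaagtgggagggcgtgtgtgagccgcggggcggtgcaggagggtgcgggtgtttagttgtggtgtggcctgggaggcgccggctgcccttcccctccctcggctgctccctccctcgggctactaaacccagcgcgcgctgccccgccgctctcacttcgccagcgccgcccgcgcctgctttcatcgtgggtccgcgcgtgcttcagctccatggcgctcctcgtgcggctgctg
The Ccn2 window held 3 copies of GGAATG, beginning at positions -166, -101 and -92, where -1 is the last of the 250 bases. The Ccn1 window held 1, at -113 on the opposite strand, and the Tgfbi window, set further into the gene than the other two, held none. On either strand, 14.2% of the 33469 promoters of this length held GGAATG. The letters TATAAA began at position -34 in Ccn1 and -31 in Ccn2 and were not in the Tgfbi window, beside 14.2% of all promoters. The SMAD motif CAGAC parted the genes in the same way, with 2 copies each in Ccn1 and Ccn2 and 0 in Tgfbi, beside 50.1% of all promoters. A match of letters describes the sequence and does not show that a factor was bound.

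The deposited values are log2 expression levels, so that a difference of 1 is a doubling, and levels of different probe sets were not compared. In the first set the arrays had median levels from 5.93 to 6.01. On average over the 38 arrays, Ccn1, Ccn2, Ccn3 and Tgfbi were above the median probe set, and Ccn4 and Ccn5 were below it. The markers of the labelled tissue were present, with 7 of 7 measured oocyte markers and 8 of 8 measured pregranulosa markers above the median. Control 1 and the first samples of FGF2, KITLG and LIF resembled one another in their deviations from their group means over all probe sets (r from 0.547 to 0.74), whereas control 1 reached at most 0.34 with any other array. These 4 arrays held the 4 lowest levels of Ccn3 among the 38, and control 1 and the first KITLG sample held the lowest levels of Ccn2. They also held the 4 lowest summed levels of the oocyte markers and the 4 highest of the macrophage markers, and their ranks for the surface epithelium markers ran from 34 to 38, counted from the lowest. The main results that rest on them are also given without them.

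**Figure D1:**
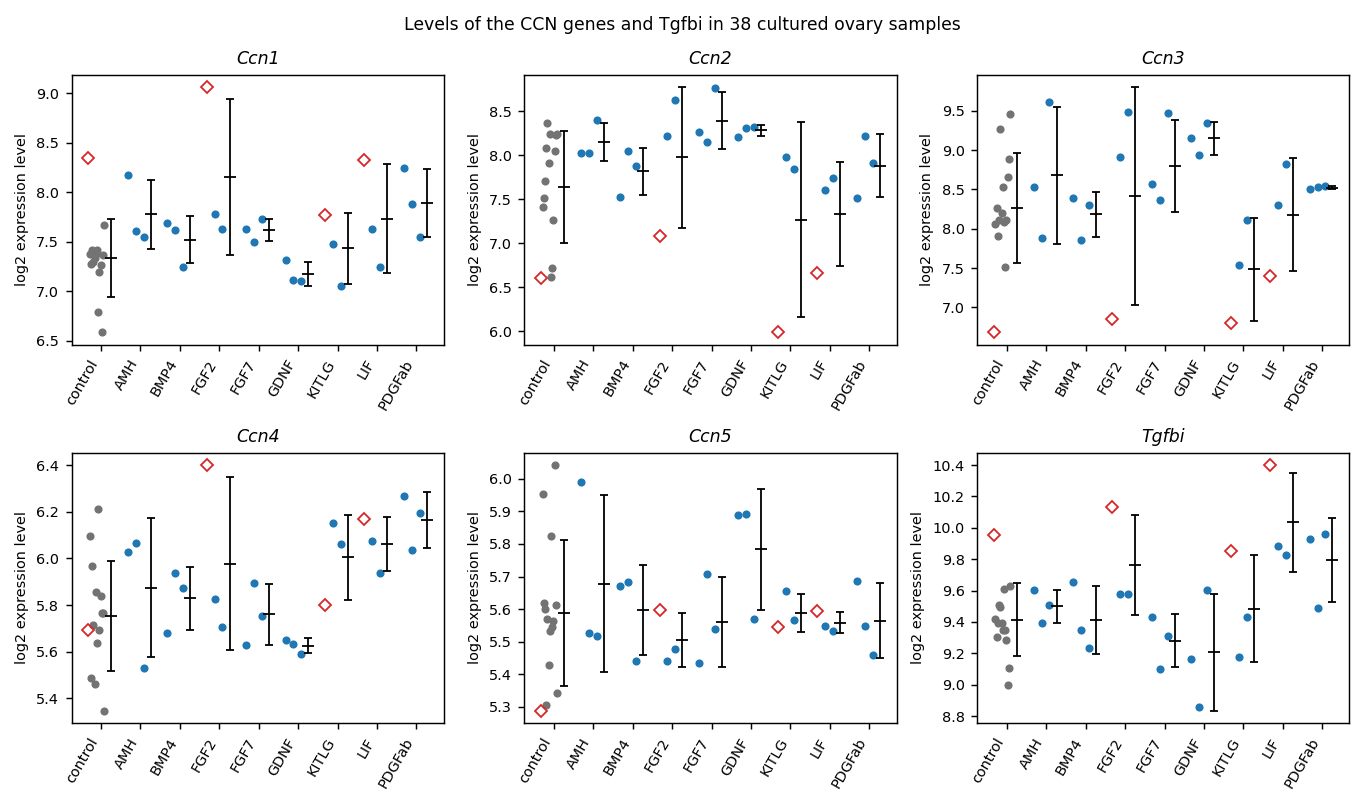
Log2 expression level (y axis) of each gene in each of the 38 samples, by group (x axis). Grey points are the 14 controls, blue points the treated samples and open red diamonds control 1 and the first samples of FGF2, KITLG and LIF, and bars give the group mean and SD. The diamonds lie at the bottom of the Ccn3 panel, at 6.69, 6.85, 6.80 and 7.40, and near the top of the Tgfbi panel.

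Ccn2 and Ccn3 varied more between untreated ovaries than nearly all other genes. The SD over the 14 controls was 0.63 for Ccn2 and 0.70 for Ccn3, larger than that of 99.1% and 99.4% of the named genes, whose median SD was 0.20. Ccn1 had an SD of 0.39, above that of 93.5% of the genes. Tgfbi, Ccn4 and Ccn5 varied about as much as many other genes, with SDs of 0.23, 0.24 and 0.22. Without control 1 the SDs over 13 controls were 0.58 for Ccn2 and 0.55 for Ccn3, still above those of 99.1% and 98.8% of the genes, whereas that of Ccn1 was 0.28, above 81.4%. Within the treated groups the pooled SDs were 0.57 for Ccn2, 0.72 for Ccn3 and 0.41 for Ccn1 over the 24 treated samples. Without the first samples of FGF2, KITLG and LIF they were 0.25, 0.47 and 0.25, above those of 90.1%, 99.0% and 90.4% of the genes. In whole ovaries, fewer cells of a type and less RNA per cell cannot be told apart.

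None of the 48 differences between a growth factor and the 14 controls passed an adjusted p of 0.05 (limma, Benjamini-Hochberg over all probe sets), and none of the 6 differences with CTGF did. Of these 54 differences, 9 had an unadjusted p under 0.05, and those 9 also met the criteria of the study, namely an unadjusted p no greater than 0.05 together with linear means that differ by 10 or more and whose ratio is 1.2 and over or 0.83 and under. With the methods' t-test, 7 met the criteria and 0 passed after adjustment. In each of the 9 the treated mean was the higher one, and in none of the 54 were treated and control samples without overlap. Of all probe sets, 0.227% (AMH) to 1.01% (FGF7) were without overlap with the 8 growth factors, and 8.18% with CTGF. An unadjusted p under 0.05 was reached by 1388 (AMH) to 4670 (GDNF) probe sets, and by 854 with CTGF. The criteria with the methods' test were met by 348 (AMH) to 1339 (FGF2) probe sets, and by 105 with CTGF. The 8 comparisons share their controls and are therefore not independent of each other. The study's own lists differ for Ccn2 and Tgfbi. They give Ccn2, under its earlier name Ctgf, as higher with FGF7 and lower with LIF, and Tgfbi as lower with FGF7. Here the linear ratios were 1.58 for Ccn2 with FGF7, 0.786 for Ccn2 with LIF and 0.905 for Tgfbi with FGF7. Of these only Ccn2 with FGF7 met the criteria, and with the methods' test none did. The reason for the difference was not tested.

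The share of all probe sets that passed gives the measure for these counts. An adjusted p under 0.05 was reached by 0% of probe sets with AMH, 0.274% with BMP4, 0.94% with FGF2, 0.0805% with FGF7, 1.89% with GDNF, 0.0439% with KITLG, 0.267% with LIF, 0.234% with PDGFab and 0% with CTGF. The study criteria were met by 2.15% with AMH, 4.48% with BMP4, 6.79% with FGF2, 4.16% with FGF7, 5.99% with GDNF, 4.44% with KITLG, 3.82% with LIF, 5.33% with PDGFab and 0.761% with CTGF. Beside these shares, 2 of the 6 genes met the criteria with FGF2, 1 with FGF7, 1 with GDNF, 2 with LIF and 3 with PDGFab. None did with AMH, BMP4, KITLG or CTGF. Without the 4 arrays named above, 13 differences met the criteria, all higher in the treated samples and 7 of them among the 9, and 0 passed after adjustment. These were 3 with FGF2 (Ccn1, Ccn2 and Ccn3), 3 with PDGFab (Ccn1, Ccn4 and Tgfbi), 2 with FGF7 (Ccn1 and Ccn2) and 2 with GDNF (Ccn2 and Ccn3). There was 1 each with AMH (Ccn1), KITLG (Ccn4) and LIF (Tgfbi). In that fit the criteria were met by 2.25% of all probe sets with AMH, 4.73% with BMP4, 5.68% with FGF2, 4.3% with FGF7, 6.07% with GDNF, 3.19% with KITLG, 2.38% with LIF and 6.03% with PDGFab.

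**Figure D2:**
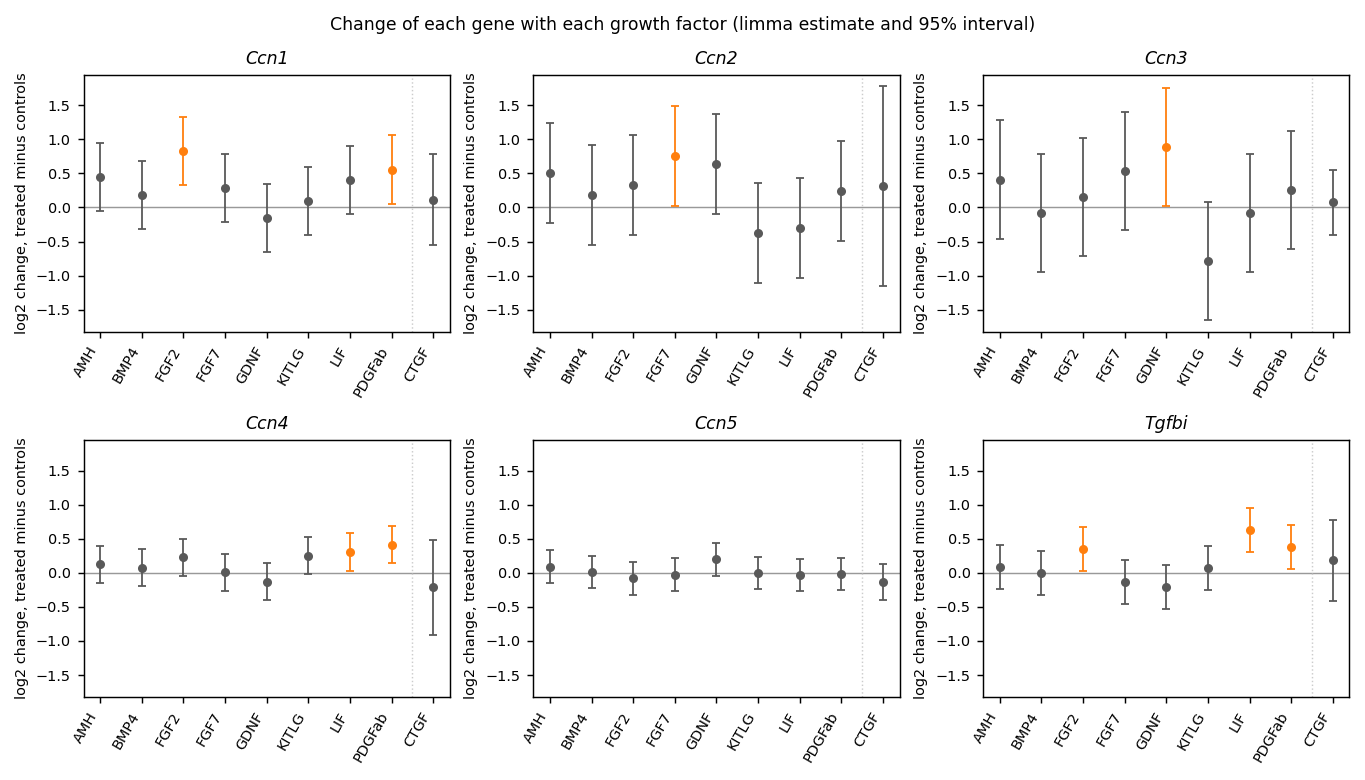
Log2 change of each gene (y axis, treated minus controls, limma estimate with its 95% interval) with each growth factor (x axis), the CTGF set being separated by a dotted line. Orange marks the 9 changes that met the study criteria, all of them above 0, and the largest of these was 0.88 for Ccn3 with GDNF.

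Ccn2 encodes the factor that was itself added to the second set. In the 14 controls its level ran from 6.61 to 8.37 with a median of 7.81. With FGF7 the samples were at 8.27, 8.15 and 8.76. All 3 lay above the control mean and 1 above the highest control, and the difference of means was 0.75 ± 0.36 (SE, 95% interval 0.02 to 1.48), with an adjusted p of 0.649 in limma and an exact two-sided permutation p of 0.0632. With GDNF the samples lay close together at 8.21, 8.31 and 8.32, all within the range of the controls, and the difference was 0.64 ± 0.36 (adjusted p = 0.373). With KITLG the samples were at 5.99, 7.98 and 7.84, so that the first alone lay below every control, and the difference of -0.37 turned to 0.19 without the 4 arrays that resembled one another. Across group means the order ran from FGF7 at 8.39 through GDNF, AMH, FGF2, PDGFab, BMP4, controls and LIF to KITLG at 7.27. This order rests in part on the arrays alike, since without them it ran from FGF2 at 8.42 through FGF7, GDNF, AMH, KITLG, PDGFab, BMP4 and controls to LIF at 7.68.

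Ccn1 encodes a close relative of CCN2 that is rapidly induced in cells that meet serum or growth factors. In the controls its level ran from 6.59 to 8.34 with a median of 7.35. With FGF2 it was 9.06, 7.78 and 7.63. The first sample was the highest of all 38 and the other two lay inside the control range. The difference was 0.82 ± 0.25 (SE, 95% interval 0.32 to 1.32), with an adjusted p of 0.101 in limma and an exact permutation p of 0.0221, and it was 0.37 (adjusted p = 0.766) without the first FGF2 sample. With PDGFab the levels were 8.24, 7.88 and 7.55, all within the range of the controls and all above their mean. That difference was 0.56 ± 0.25 (adjusted p = 0.428), and 0.63 (adjusted p = 0.056) without the 4 arrays. GDNF had the lowest group mean, at 7.18, with samples at 7.31, 7.11 and 7.10.

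Ccn3 encodes a CCN protein that often opposes the actions of CCN2 in other tissues. Its controls ran from 6.69 to 9.46 with a median of 8.16, a span of 2.77. The GDNF samples were at 9.16, 8.94 and 9.35, all above the control mean and below the highest control. The difference was 0.88 ± 0.43 (SE, 95% interval 0.01 to 1.75), with an adjusted p of 0.284 and an exact permutation p of 0.0647. The KITLG samples were at 6.80, 7.54 and 8.11, all below the control mean, and differed from the controls by -0.78 ± 0.43 (adjusted p = 0.641). With FGF2 the levels of 6.85, 8.92 and 9.49 spanned almost the whole range of the controls, and the last was above the highest of them. With PDGFab, by contrast, the samples lay close together, at 8.50, 8.53 and 8.54.

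Ccn4, known as a target of Wnt signalling, was measured at dim levels, from 5.35 to 6.21 in the controls with a median of 5.74. With PDGFab it was 6.27, 6.04 and 6.19. All 3 samples were above the control mean and 1 was above the highest control, and the difference was 0.41 ± 0.14 (SE, 95% interval 0.14 to 0.69), with an adjusted p of 0.21 and an exact permutation p of 0.0118. With LIF the levels were 6.17, 6.08 and 5.94, inside the range of the controls, and the difference was 0.31 ± 0.14 (adjusted p = 0.59). The 3 GDNF samples, at 5.65, 5.64 and 5.59, were all below the control mean. Their difference from the controls was -0.13 ± 0.14 (adjusted p = 0.669).

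Ccn5, the CCN protein that lacks the last module of the others, was at dim levels too, from 5.29 to 6.04 in the controls with a median of 5.57. Its 8 differences lay between -0.08 with FGF2 and 0.20 with GDNF, and the smallest of their adjusted p was 0.40. The GDNF samples were at 5.89, 5.89 and 5.57, and each growth factor group overlapped with the controls.

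Tgfbi encodes a matrix protein that links integrins to collagen and was named for its induction by TGF-beta. In the controls it ran from 9.00 to 9.96 with a median of 9.39, and the highest value was that of control 1. With LIF it was 10.40, 9.88 and 9.83. The first sample was the highest of the 38, and the other two were above every control except control 1. The difference was 0.62 ± 0.16 (SE, 95% interval 0.30 to 0.95), with an adjusted p of 0.0931 in limma, the smallest of the 54, and an exact permutation p of 0.00441, where 680 splits allow no value below 0.00147. Without the first LIF sample the difference was 0.44 (adjusted p = 0.9999), and without all 4 arrays it was 0.48 (adjusted p = 0.587). With PDGFab the levels of 9.93, 9.49 and 9.96 gave a difference of 0.38 ± 0.16 (adjusted p = 0.385). With FGF2 the levels of 10.13, 9.58 and 9.58 gave 0.35 ± 0.16 (adjusted p = 0.353), which was 0.17 without the first sample. GDNF had the lowest mean, at 9.21, with samples at 9.16, 8.86 and 9.60, the second being below every control.

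A moderated F test asked whether a gene differed among the 8 growth factors and the controls at all. It was passed by 2.18% of probe sets and by none of the 6 genes, for which the adjusted p was 0.0914 for Tgfbi, 0.304 for Ccn4, 0.306 for Ccn1, 0.58 for Ccn2, 0.607 for Ccn3 and 0.951 for Ccn5. Of the 48 pairs of neighbours in the orders of group means, 0 differed at an adjusted or unadjusted p under 0.05 in limma. When the growth factors were compared directly, 28 pairs of factors gave 168 differences, of which 23 had an unadjusted p under 0.05 and 1 passed after adjustment. Tgfbi was higher with LIF than with GDNF by 0.83 ± 0.20 (SE, 95% interval 0.41 to 1.24, adjusted p = 0.0213 over all probe sets of that pair), and the 3 LIF samples were above all 3 GDNF samples. In this pair 3.79% of all probe sets passed. The call was lost without the first LIF sample, where the difference was 0.65 (adjusted p = 0.15), and without the first or the second GDNF sample, where it was 0.81 (adjusted p = 0.085) and 0.66 (adjusted p = 0.116). Tgfbi with LIF was also higher than with FGF7 by 0.75 (limma, adjusted p = 0.42) and than with BMP4 by 0.62 (adjusted p = 0.785). In those pairs 20 and 18 probe sets passed, beside 1037 for LIF against GDNF. Each pair was adjusted on its own.

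Ccn2 and Ccn3 varied together between untreated ovaries. Over the 14 controls Pearson's r was 0.81 (permutation p = 0.00016, adjusted p = 0.0024 over the 15 pairs of genes) and Spearman's rho was 0.82 (permutation p = 0.00051, adjusted p = 0.00765). Without the 2 samples farthest from the median of Ccn2, r remained 0.81. Without controls 12, 13 and 14, which stood together in earlier results of these data, it was 0.77 (adjusted p = 0.0209). Without control 1, the lowest in both genes, it was 0.75 with an adjusted p of 0.0592. Among the 24 treated samples, taken as deviations from their group means and permuted within groups, r was 0.76 (adjusted p = 0.0218) and rho was 0.74 (adjusted p = 0.0283). Without the first samples of FGF2, KITLG and LIF it was 0.47 (adjusted p = 0.398). The same sign was thus found in both parts of the first set. Neither value passed the threshold without the arrays that resembled one another. In the second set, as deviations from the group means, the r of Ccn2 with Ccn3 was only 0.11 and was not tested.

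**Figure D3:**
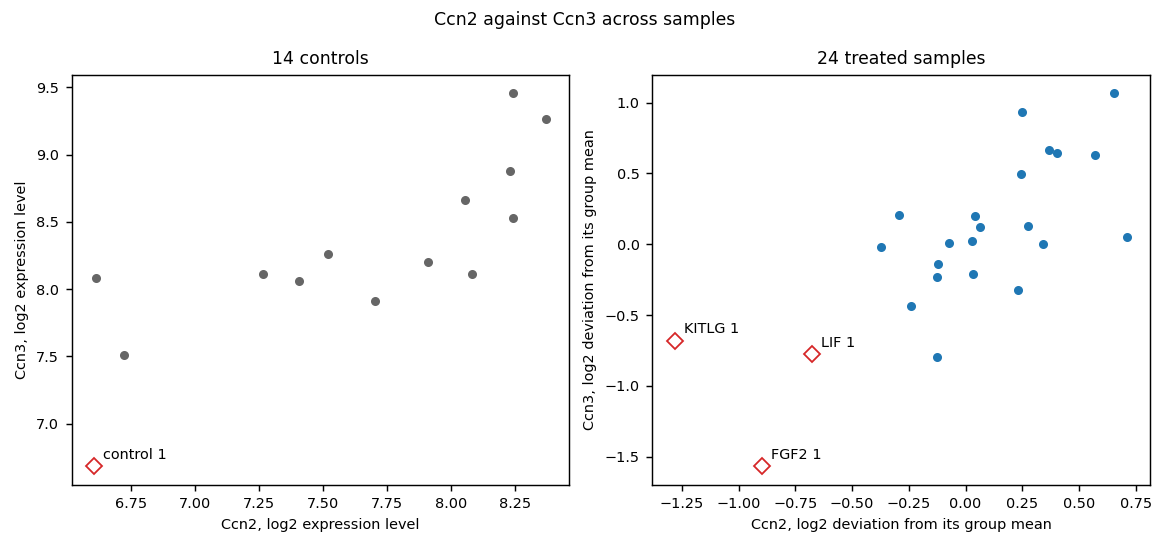
Ccn3 (y axis) against Ccn2 (x axis), as log2 levels in the 14 controls (left) and as log2 deviations from the group mean in the 24 treated samples (right). Open red diamonds are the 4 arrays that resembled one another, and r was 0.81 in the left panel and 0.76 in the right one with them included.

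Ccn1 did not follow Ccn2 in the same way. In the controls the r of Ccn1 with Ccn2 was -0.12 (adjusted p = 0.795), and without the 2 controls farthest from the median of Ccn1 it was 0.74. Among treated samples it was -0.72 (adjusted p = 0.0258), and -0.30 without the 3 first samples. Over the 6 arrays of the second set, as deviations from the group means, it was 0.81 and was not tested. The pair of Ccn1 and Ccn5 passed in the controls with r = -0.72 (adjusted p = 0.0263), where rho was -0.52 (adjusted p = 0.218). Among treated samples that pair had the opposite sign, with r = 0.50 (adjusted p = 0.0218). The r of Ccn1 with Tgfbi was 0.69 in the controls (adjusted p = 0.0597), and it was -0.11 without the 2 farthest controls, so that it rested on those samples. In all, 2 of the 15 pairs passed in the controls by Pearson's r and 1 by Spearman's rho, 6 passed among treated samples, and 1, Ccn2 with Ccn3, passed in both with the same sign. Without the 3 first samples 0 passed among treated samples, and without control 1 0 passed among the controls.

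The level of Ccn2 moved with the markers of oocytes and, in the other direction, with those of the surface epithelium. The mean standardised level of the 7 measured oocyte markers, out of 11 listed, had an r of 0.80 with Ccn2 over the 14 controls (permutation p = 0.00021, adjusted p = 0.0189 over 90 relations of 15 gene lists with the 6 genes). Spearman's rho was 0.66 (adjusted p = 0.171), and r was 0.72 without the 2 samples farthest in the oocyte markers, 0.81 without control 1 and 0.80 among treated samples. Without the first samples of FGF2, KITLG and LIF the value among treated samples was 0.25. Their summed log2 level ran from 11.72 to 13.15 in the controls and from 11.23 to 13.34 with FGF2, where the first sample was the lowest of all 38. For the 6 measured surface epithelium markers, out of 9 listed, r with Ccn2 was -0.81 (adjusted p = 0.0284), rho was -0.71 (adjusted p = 0.171), and r was -0.63 without the 2 farthest samples, -0.74 without control 1, -0.80 among treated samples and -0.47 among these without the 3 first samples. The summed log2 level of these ran from 11.41 to 12.62 in the controls. Of the 90 relations 7 passed by Pearson's r, and by Spearman's rho the smallest adjusted p was 0.123. The part of the cell makeup in the levels of Ccn2 was not tested.

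Another 5 relations passed by Pearson's r, of which 3 fell to an r under 0.6 in size without control 1. The YAP and TEAD target genes, a list that leaves out Ccn1 and Ccn2, had an r of 0.80 with Tgfbi (adjusted p = 0.0349, rho = 0.75), which was 0.59 without control 1. Among treated samples it was 0.79, and 0.53 without the 3 first samples. The TGF-beta responsive matrix genes had an r of -0.76 with Ccn3 (adjusted p = 0.0487, rho = -0.66), which was -0.51 without control 1 and -0.32 without the 2 farthest samples. Among treated samples it was -0.68, and -0.09 without the 3 first samples. The oocyte markers had an r of 0.73 with Ccn3 (adjusted p = 0.0487, rho = 0.51), which was 0.47 without control 1. Among treated samples it was 0.69, and its sign turned, to -0.35, without the 3 first samples. For the immediate early genes, which are induced within minutes of a stimulus, r with Ccn2 was -0.72 (adjusted p = 0.0349, rho = -0.55), -0.66 without control 1, -0.86 among treated samples and -0.47 among these without the 3 first samples. The TGF-beta ligands, receptors and SMADs had an r of -0.73 with Ccn5 (adjusted p = 0.0487, rho = -0.75), and -0.39 without the 2 farthest samples. Among treated samples it was -0.24, and -0.41 without the 3 first samples.

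The genes whose levels over the 14 controls were most like those of each member were taken from 8411 named genes above the median level. For Ccn2 these were Wsb1 (r = 0.93), the collagen gene Col11a1 (0.92), the collagen prolyl hydroxylase gene P3h2 (0.91), Hecw2 (0.91) and Rhobtb1 (0.91). Among the 24 treated samples the r of these 5 with Ccn2 ran from 0.63 for Col11a1 to 0.95 for Hecw2, higher than that of 86.2% and 99.96% of the 8411 genes. Without the first samples of FGF2, KITLG and LIF it ran from 0.31 for Col11a1 to 0.81 for Hecw2. For Ccn3 they were Rffl (0.91), Tmem38b (0.90), the collagen lysyl hydroxylase gene Plod2 (0.90), A4galt (0.90) and Ly6g6e (0.90), with an r from 0.72 for Rffl to 0.86 for Tmem38b among treated samples, and from 0.13 for Rffl to 0.85 for Plod2 without the 3 first samples. For Ccn1 they were Irak3 (0.91), Naaa (0.88), Dele1 (0.88), Hebp1 (0.86) and Ltbp2 (0.85), the last of which encodes a latent TGF-beta binding protein. Their r with Ccn1 among treated samples ran from 0.58 for Dele1 to 0.77 for Naaa. Without the 3 first samples it ran from -0.08 for Dele1 to 0.36 for Hebp1. For Tgfbi they were Taok3 (0.91), Hdac7 (0.86), Faah (0.86), Mfhas1 (0.85) and Synj2 (0.84), with an r from 0.08 for Faah to 0.71 for Hdac7 among treated samples. Without the 3 first samples it ran from -0.01 for Faah to 0.52 for Hdac7. For the dim genes they were Aanat, Defb25, Krtap5-8, Krtap10-10l2 and Armc2 with Ccn5 (0.81 to 0.86) and Mtarc2, Zfhx2, Enpp4, Vom2r16 and Sema3d with Ccn4 (0.64 to 0.70). Among treated samples the Ccn5 values ran from 0.51 for Aanat to 0.75 for Krtap10-10l2. Those of Ccn4 ran from 0.07 for Enpp4 to 0.64 for Sema3d, and from 0.02 for Zfhx2 to 0.50 for Sema3d without the 3 first samples. These values describe samples that share control 1 or, among the treated, the 3 first samples.

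Genes of the pathways around the CCN proteins were counted in the same comparisons. With FGF2, 1 of 15 measured YAP and TEAD target genes passed after adjustment, Axl, a receptor tyrosine kinase, which was 10.05 ± 0.51 (SD, n = 3) against 9.25 ± 0.27 (SD, n = 14) in the controls (log2 change 0.80, adjusted p = 0.00824, limma). Of the 14 measured binding partners of CCN and TGFBI proteins, 2 passed with FGF2 and both rose. These were the syndecan Sdc4 (log2 change 0.91, adjusted p = 0.0456) and the integrin chain Itgb5 (0.58, adjusted p = 0.0152). Over all probe sets the share that passed with FGF2 was 0.94%. Without the 4 arrays that resembled one another the changes were 0.56 for Axl (adjusted p = 0.102), 0.89 for Sdc4 (adjusted p = 0.171) and 0.43 for Itgb5 (adjusted p = 0.312). With FGF2, 1 marker of stromal mesenchyme, Pdgfrb, and 1 of the surface epithelium, Upk1b, also passed, at 0.59 (adjusted p = 0.0427) and 1.24 (adjusted p = 0.026), and without the 4 arrays they were at 0.48 (adjusted p = 0.33) and 0.94 (adjusted p = 0.3). In the other 8 comparisons no member of the 7 pathway lists or the 8 marker lists passed, while 83 of their 1128 differences, or 7.36%, had an unadjusted p under 0.05, beside 8.44% over all probe sets.

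At the study criteria the TGF-beta responsive matrix genes were the list with the most members in any comparison, 6 of 11 with PDGFab, all higher. These were Fn1 (fibronectin, 0.87), Lox (a collagen crosslinking enzyme, 0.84), Timp1 (0.78), Col1a2 (0.66), Bgn (0.55) and Col1a1 (0.48), with adjusted p from 0.0677 to 0.484. The median log2 change of the list was 0.48 with PDGFab and 0.32 with FGF2, beside -0.0015 and -0.0012 for all named genes. In those 2 comparisons Ccn1 and Tgfbi also met the criteria. Without the 4 arrays that resembled one another, Tgfbi no longer met them with FGF2, while Ccn1 did, and both still met them with PDGFab. With FGF2 5 of 15 YAP and TEAD target genes met them, and 0 of 12 Hippo pathway kinases, coactivators and TEAD genes. Over all probe sets the share that met the criteria was 5.33% with PDGFab and 6.79% with FGF2. With every growth factor other than FGF2 and PDGFab, CTGF included, at most 2 members of any of the 7 pathway lists met the criteria in either direction.

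The second set asked what added CTGF does to its own family. Here samples with the same replicate number resembled each other over all probe sets (r = 0.843, 0.623 and 0.647), and the differences are given by pair. Ccn2 was at 7.62, 8.85 and 9.05 with CTGF and at 6.97, 8.59 and 9.02 in the controls of the same numbers. It was higher with CTGF in 3 of 3 pairs, by 0.31 ± 0.31 (SD, n = 3), although the pairs differed from each other by far more than that. Tgfbi was at 9.43, 10.06 and 9.57 with CTGF and at 9.17, 9.96 and 9.38 in the controls, higher in 3 of 3 pairs by 0.18 ± 0.08 (SD, n = 3). In limma the adjusted p of both genes was 0.9999 without the pairs, and with the replicate number as a block it was 0.444 for Ccn2 (unadjusted p = 0.0243) and 0.457 for Tgfbi (unadjusted p = 0.0303).

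The other members moved in no common direction across the pairs. Ccn1 was higher with CTGF in 2 of 3 pairs (mean difference 0.12 ± 0.32, SD) and Ccn3 in 2 of 3 (0.07 ± 0.16, SD). Ccn4 was higher in 1 of 3 pairs (-0.21 ± 0.36, SD) and Ccn5 in 1 of 3 (-0.14 ± 0.24, SD). Exact permutation tests of 3 against 3 samples gave p from 0.30 to 0.90 for the 6 genes, where the smallest value possible is 0.10. The criteria of the study were met by 0 of the 6 genes.

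**Figure D4:**
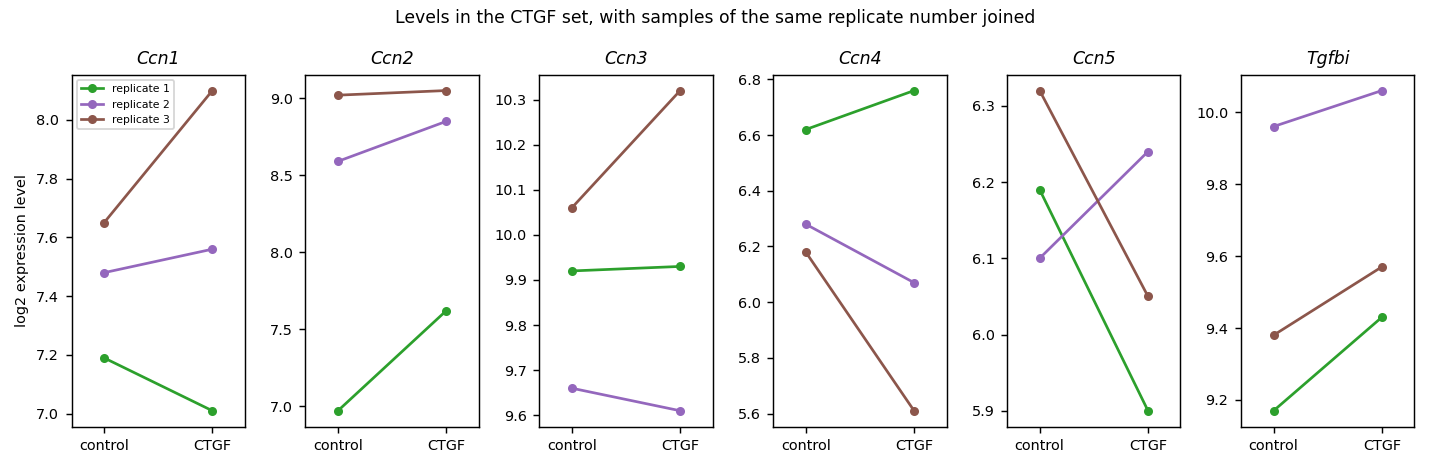
Log2 expression level (y axis, a scale of its own for each gene) in the control and the CTGF-treated sample (x axis) of each replicate number, joined by a line. The lines of Ccn2 and Tgfbi go up in 3 of 3 pairs, by 0.31 and 0.18 on average, and those of the other genes go both ways.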

How the data were processed

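RNA of 44 samples was measured on Affymetrix Rat Gene 1.0 ST arrays. The authors processed the scans in Partek by a GC-adjusted RMA, separately for the 38 and the 6 arrays, and deposited log2 expression levels of 27342 probe sets. Of these, 15097 had 1 gene symbol in the annotation used here, 323 several and 11922 none. The values were used as deposited, and each comparison stayed within its set. Groups came from the labels, no array was left out, and the number of arrays limits the precision. The labels name no culture or scan batches. By the paper's methods, untreated ovaries were cultured on each day beside some of the growth factor treatments. Its network analysis corrected for possible effects of culture, RNA and array dates and reported no major effect. Since the days are not given for each array, the main fits here took no account of them.

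Changes were tested with lmFit and eBayes of limma 3.58.1 (R 4.3.3), all 38 arrays in 1 fit and the CTGF set in another, with p-values adjusted over all probe sets at 0.05. Exact two-sided permutation tests enumerated all splits (680 or 20). Correlations used 100000 permutations (Python 3.11.15, scipy 1.17.1, numpy 2.4.6), and steps were tested on simulated data. Each sample is a pool from 1 well, and the labels do not say which wells shared a litter.

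Named were the 6 genes, pathway list members that passed after adjustment (at most 3 for each list and comparison), and the 5 genes most correlated with each member over the controls. Genes listed at the study criteria, marker genes and the 90 list relations were chosen after values were seen. The members and lists were chosen with earlier results of these data known. Deviations from group means showed pairing by replicate number in the CTGF set (r = 0.843, 0.623 and 0.647). In the other set only the first FGF2, KITLG and LIF samples were most like the control of their number (r = 0.740, 0.615 and 0.694). For the other treated samples r with that control ran from -0.56 to 0.34. Alternatives were other tests, weights, normalization, filters, control sets, the replicate block and leaving out samples.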

Additional observations from a re-analysis of the deposited data

Results flagged for a closer look

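The difference of Tgfbi between LIF and GDNF, compared directly in the fit of the 38 arrays, was 0.83 on the log2 scale (limma, adjusted p = 0.0213), with Tgfbi above the controls by 0.62 with LIF and at -0.21 relative to them with GDNF. It was singled out because the difference between the growth factors itself passed the threshold, while neither factor passed against the controls. The first LIF sample, at 10.40, was among the 4 arrays that resembled one another and held the highest summed level of immediate early genes among the 38 and the next to highest of macrophage markers. Without those 4 arrays the difference was 0.65 (adjusted p = 0.0867).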

How the results depend on the processing

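Under the alternatives the 54 log2 changes gave 732 values, of which 67 changed sign, for 31 changes of at most 0.53 in size. Values reversed by more than 1 SD were, for Ccn3 with controls 12, 13 and 14 alone, -0.32 (AMH), -0.58 (FGF2), -0.20 (FGF7) and -0.48 (PDGFab), and, leaving out 1 sample at a time, Ccn2 with KITLG (-0.73 to 0.27, the latter without the first KITLG sample), Ccn1 with CTGF (-0.16 to 0.39) and Ccn4 with CTGF (-0.52 to 0.055), the turned values of both without the third CTGF sample. The count of genes past an adjusted p of 0.05 went from 0 to 1 for GDNF (Ccn5), LIF (Tgfbi) and PDGFab (Ccn4) with array quality weights and to 1 for LIF (Tgfbi) with controls 12, 13 and 14 alone. With the replicate block, which leaves controls 1 to 3, it went to 1 for FGF7 (Ccn2, 1.21) and to 2 for GDNF (Ccn2, 1.10, and Ccn3, 1.48), and it changed no other count. In that set only the first samples of FGF2, KITLG and LIF were most like the control of their number. For Tgfbi, LIF minus GDNF was no longer past the threshold with the methods' t-test on log2 (0.83, adjusted p = 0.206) or linear values (0.82, 0.236). Nor was it past it in a limma fit of the LIF and GDNF arrays alone, without controls (0.83, 0.065), or without the 4 arrays alike (0.65, 0.0867). Leaving out 1 sample gave 0.65 to 1.02. Of the pairs of genes, 1 passed in the controls by Spearman's rho, without controls 12, 13 and 14, or after quantile normalization, and 0 without control 1, when Ccn1 with Ccn3 turned to an r of 0.24. Without the 3 first samples 0 passed among treated samples, and Ccn3 with Tgfbi turned to 0.30. The cause was not tested. The mean over probe sets was not run, since each gene has 1. Alternatives without the 4 arrays, and all those of the direct and treated-sample results, were added after seeing the data. Dim levels of Ccn4 and Ccn5, near or below the median probe set, limit what they can show.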
